A study of Mus musculus with 6 samples.

Results

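The comparison described here set a miR-294 mimic against the CTR wells in mouse embryonic stem cells (ESCs) that lack Dgcr8. It took the 4 libraries labelled miR-294 and CTR, of 6 in the series, and every gene whose RPKM averaged 1 or more across the 6. These were 11428 of the 13743 entries in the deposited table. RPKM counts reads per kilobase of transcript and relative to the size of the library. Every group was Dgcr8-/- on a C57/129 background, so the CTR cells carried the deletion too, and RNA was taken 48 h after transfection. The miR-294 cells received the mimic and the siMbd2 cells, the third group of the series, an siRNA against Mbd2. Both RNAs were given at 50 nM with the lipid reagent DharmaFECT1, 16 h after plating. The labels do not say what was given to the CTR wells, and the table calls them mock. Each group had 2 libraries, and nothing in the labels says that they came from separate cultures. The p-values below therefore measure only the spread between these libraries, which may be technical.

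Dgcr8 is the partner of the nuclease Drosha, and cells without it do not cut primary transcripts into canonical microRNAs. A microRNA loaded into an Argonaute protein pairs through its seed, the bases near its 5′ end, with sites that lie mainly in 3′ UTRs, and shortens the life or lowers the translation of the mRNA. Mouse ESCs normally make large amounts of the miR-290 cluster, to which miR-294 belongs. A synthetic mimic returns 1 member of this family to cells that have none, and messages with matching sites are the ones it can act on directly.

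The mature strands printed first show what the mimic shares with its relatives, with the seed (positions 2 to 8 from the 5′ end) in capitals. They come from RefSeq on GRCm38.p6.
miR-294-3p: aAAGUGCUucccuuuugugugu
miR-291a-3p: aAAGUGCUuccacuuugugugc
miR-295-3p: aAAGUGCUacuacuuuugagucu
miR-302b-3p: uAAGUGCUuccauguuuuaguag
miR-290a-3p: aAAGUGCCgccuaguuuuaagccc
miR-291b-3p: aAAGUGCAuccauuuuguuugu
miR-294-3p, miR-291a-3p, miR-295-3p and miR-302b-3p had the same seed, AAGUGCU. The seeds of miR-290a-3p and miR-291b-3p, from the same cluster as miR-294, ended in another base. The match sought in mRNAs was therefore AGCACTTA (the full seed followed by an A, 8 bases), and the shorter forms were AGCACTT (positions 2 to 8), its 7-base neighbour GCACTTA and the 6 bases that both share, GCACTT.

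Sites from the messages on which the results below turn are shown next, 5′ to 3′ along the mRNA, with the seed match in capitals and up to 30 bases in all. They were read from GENCODE vM21 transcripts on GRCm38.
Irf2: ccttatcttgaAGCACTTAcaataggcctt
Erap1: taactcataatAGCACTTActgaaaataaa
Rrm2b: tttttgtcataAGCACTTAagatggcatta
Lefty1: actgtatgcgaAGCACTTAcatgtatagat
Lefty2: cacccagtttaAGCACTTAcatgggtaaat
Lamp2: ttgactgctacAGCACTTActaatttggct
Cdkn1a: gtgggtgtcaaAGCACTTAgtgggtctgac
Rbl2: tttttcaataaAGCACTTAtaaatta
Lats2: agtatggaaagAGCACTTAttttgtggata
Dazap2: cacataccttcAGCACTTctcacaatgtaa
Casp2: ggcttctgcatGCACTTAcactgtacttga
Tgfbr2: tcaaaacctaaAGCACTTAttttcaatcta
All of these lie in 3′ UTRs. The match of Irf2 is at chr8:46846664-46846671 on the plus strand, that of Erap1 at chr13:74691633-74691640 (plus), that of Rrm2b at chr15:37926864-37926871 (minus) and that of Lamp2 at chrX:38420725-38420732 (minus). The matches of the neighbouring genes Lefty1 and Lefty2 are at chr1:180938213-180938220 and chr1:180897917-180897924, both on the plus strand. The matches of Lats2 (chr14:57691086-57691093, minus), Tgfbr2 (chr9:116087771-116087778, minus), Dazap2 (chr15:100619542-100619548, plus) and Casp2 (chr6:42281288-42281294, plus) complete the set with those of Cdkn1a (chr17:29100500-29100507, plus) and Rbl2 (chr8:91123830-91123837, plus). The Rbl2 match begins 1384 bases into a 3′ UTR of 1398 bases, within the last bases of the annotated transcript.

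The whole table gives the frame for these genes. RPKM values do not hold read counts, so the depth of the libraries is unknown. The RPKM of all entries summed to between 429460 and 450520 in the CTR libraries and to between 488568 and 493079 in the miR-294 libraries. The 2 CTR libraries differed more from each other (median absolute log2 difference 0.136) than the 2 miR-294 libraries (0.0626). Of the summed RPKM, 3.03% and 4.13% fell on mitochondrially encoded genes in CTR and 2.52% and 2.68% with miR-294. Dgcr8 read 7.49 and 8.44 RPKM in CTR, 6.66 and 7.14 with miR-294 and 7.24 and 7.34 with siMbd2, a gene-level value that cannot show whether the transcript is intact. Pou5f1, Nanog and the other 10 ESC markers were all present, whereas 3 of 3 mesoderm markers and 6 of 7 primitive endoderm markers in the table had means under 1 RPKM. Changes below are differences of log2(RPKM + 1), a scale that understates the change of genes at low levels. Genes were called higher or lower at an adjusted p under 0.05 in limma, and the verbs rose and fell are kept for such genes. By this rule 27.7% of tested genes were higher and 36.8% lower with miR-294, and 9.54% and 16.7% were so by at least 1.5-fold. At 2-fold the shares were 1.93% and 5.39%. With so many genes called, the counts of each group below are to be read against these shares.

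**Figure D1:**
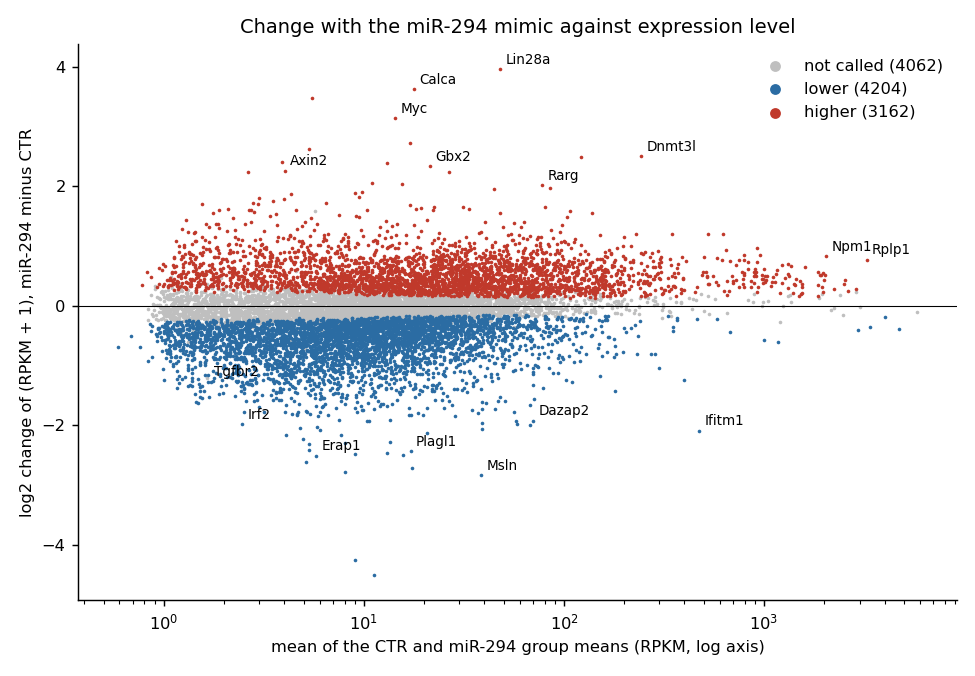
Each point is 1 of 11428 genes, with the mean of its CTR and miR-294 group means in RPKM on a log axis (x) and its log2 change of (RPKM + 1), miR-294 minus CTR (y). Genes called higher (3162) are red and genes called lower (4204) blue. The 5th and 95th percentiles of all changes are -1.03 and 0.76, and most labelled genes lie outside them.

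Messages described as targets of the miR-290 family were followed first. Of 16, 15 passed the filter, and Dkk1 had a mean under 1 RPKM. All 15 fell with miR-294. Their median log2 change was -1.27, against -0.08 over all genes. The list was drawn from what is known of the family and in part from studies of the same cells, so its direction is not independent evidence. Each of the 15 holds at least a 7-base match in its longest 3′ UTR, and 9 hold the 8-base match. In every one both miR-294 libraries lay below both CTR libraries, which was so for 46% of all tested genes.

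Irf2, which encodes an interferon regulatory factor, had the lowest log2 change among them. It read 4.24 and 4.79 RPKM in the CTR libraries and 0.43 and 0.37 with miR-294 (log2 -1.98, SE 0.093, adjusted p = 2.19e-06). With siMbd2 it read 4.53 and 4.34, at the CTR level. Lefty1 and Lefty2 encode secreted inhibitors of Nodal, the signal that patterns the early embryo. Lefty1 read 106 and 80.5 RPKM in CTR and 24.2 and 21.5 with miR-294, and Lefty2 22.7 and 21.2 and 5.27 and 4.94. Both were also lower with siMbd2, at 45.7 and 38 and 13.6 and 13.3 RPKM, and lay lower still with the mimic (miR-294 minus siMbd2 -0.84, adjusted p = 8.92e-04, and -1.24, adjusted p = 8.59e-06). Tgfbr2, the type II receptor for TGF-β, read 2.95 and 2.6 RPKM in CTR and 0.57 and 0.56 with miR-294.

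Brakes on the cell cycle formed the next set. Cdkn1a, the gene of the kinase inhibitor p21, read 61.4 and 54.8 RPKM in CTR, 17.2 and 15.1 with miR-294 and 59.6 and 64 with siMbd2. Only the miR-294 libraries stood apart here: the direct difference from siMbd2 was -1.88 (adjusted p = 3.79e-06), and siMbd2 against CTR gave 0.09 (adjusted p = 0.44). Rbl2, a retinoblastoma family member, read 9.06 and 8.91 in CTR and 2.31 and 2.52 RPKM with miR-294. Lats2, a kinase of the Hippo pathway, read 9.64 and 9.1 and 2.92 and 2.61, and Wee1, which holds back entry into mitosis, 32.5 and 33.2 and 24.6 and 24. The fall of Wee1 (-0.42) was the smallest of the 15.

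The remaining targets have varied roles. Dazap2, an adaptor protein, read 112 and 112 RPKM in CTR, 29.3 and 28.1 with miR-294 and 112 and 110.5 with siMbd2. The protease gene Casp2 read 20.5 and 19.7 and 8.06 and 8.13 in CTR and miR-294, and Ei24, a membrane protein of the endoplasmic reticulum, 111 and 103 and 58.4 and 59.5. In these 3 genes the replicates differed by far less than the groups. The kinase gene Akt1 went from 38.6 and 32.1 to 19 and 17.6 RPKM, the iron-sensing ubiquitin ligase subunit Fbxl5 from 26 and 27.8 to 18.4 and 20.4, and the small GTPase Rhoc from 67.6 and 57 to 45.1 and 46.2. Mbd2, a reader of methylated DNA, read 26.8 and 27.9 in CTR and 11.3 and 12.3 with miR-294, and its level under the siRNA was lower again, at 7.33 and 6.34.

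**Figure D2:**
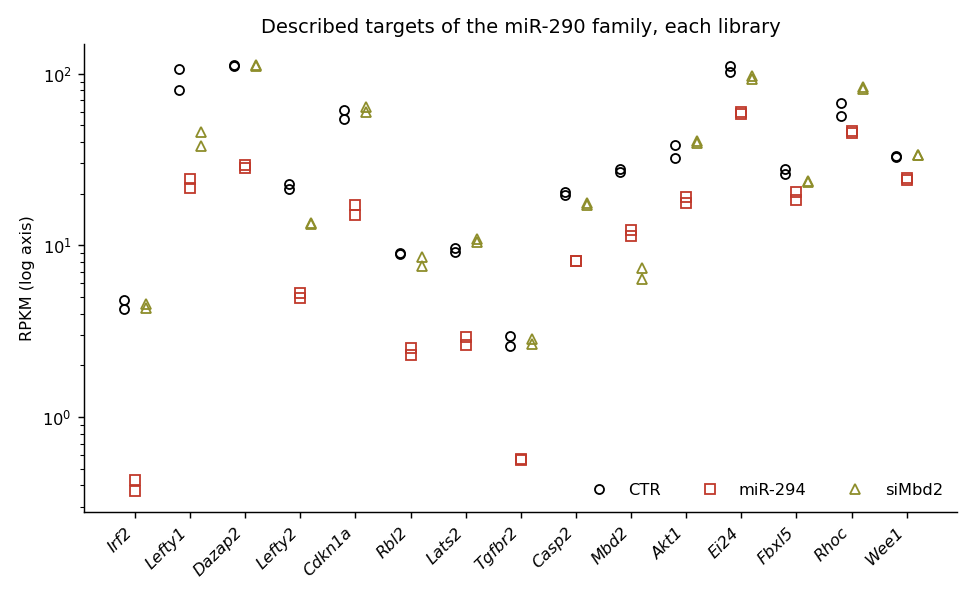
Each symbol is 1 library (2 per group) and shows the RPKM, on a log axis, of 15 described targets in CTR (circles), miR-294 (squares) and siMbd2 (triangles). For every gene the 2 squares lie below the 2 circles. Irf2 is lowest, at 0.37 and 0.43 RPKM with miR-294. The nearest circle and square lie closest to each other in Rhoc.

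Messages with a seed match were lower than messages without one, in the order of the length of the match. A 3′ UTR was found for 98.3% of tested genes. Of 412 genes whose longest 3′ UTR held the 8-base match, 61.2% fell and 11.7% rose, with a median log2 change of -0.37. The median was -0.22 for 1579 genes with a 7-base match to positions 2 to 8 and -0.22 for 372 with the other 7-base form. It was -0.15 for 1385 genes with only 6 bases and -0.01 for 7483 with no match. Of the latter 31.5% fell and 32.6% rose.

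The class differences appeared in the miR-294 libraries. Relative to genes without a match, the 8-base class lay at -0.37 in both miR-294 libraries, at -0.05 and 0.05 in CTR, and at -0.09 and -0.07 in siMbd2. Matches to other seeds gave smaller medians. Among genes without a miR-294 match, 208 with the 8-base match to let-7 (CTACCTCA) had a median of -0.12, and 486 with that to the opposite strand of the hairpin, miR-294-5p (TTTTGAGA), -0.05. An 8-base miR-294 match in the coding sequence alone (148 genes) went with a median of -0.14. By number, the median was -0.23 with 1 match of 7 or 8 bases, -0.27 with 2 and -0.31 with 3 or more. For 18 genes with 2 or more 8-base matches it was -0.59. Length rose with number too: the median 3′ UTR was 2160 bases with 1 match of 7 or 8 bases, 3260 with 2 and 5300 with 3 or more. The part of length in this order was not tested.

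**Figure D3:**
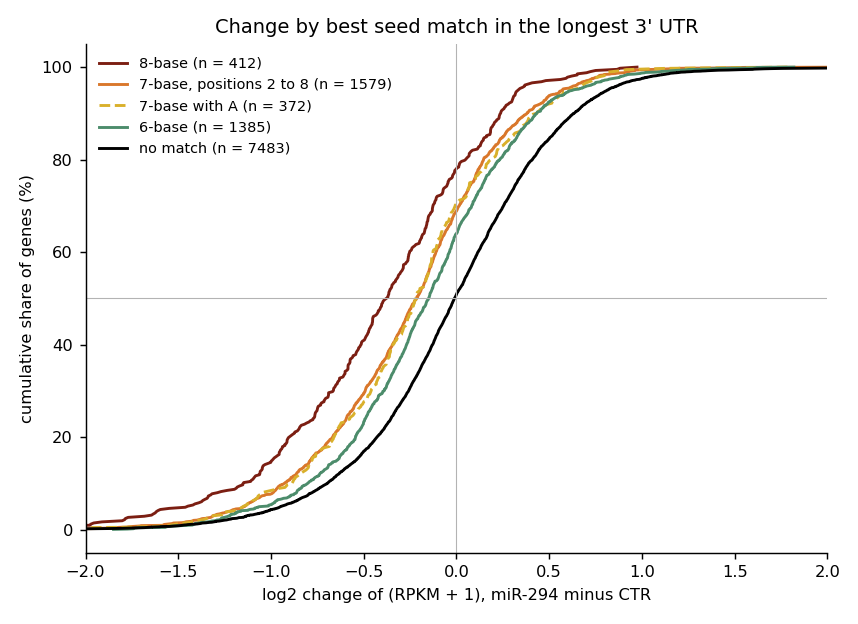
Each line gives the cumulative share of genes (y, percent) with a log2 change of (RPKM + 1), miR-294 minus CTR, at or below the value on the x axis, for the best seed match in the longest 3′ UTR. The 8-base line lies farthest to the left (median -0.37), the 7-base and 6-base lines lie between, and genes with no match cross the middle near 0.

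Length of the 3′ UTR and expression level moved with these classes. The 8-base class was therefore also compared with genes without a match, within 4 equal bins of length and of level. The classes with shorter matches were not compared within bins, so the part of length and level in their medians was not tested. The median 3′ UTR was 2780 bases in the 8-base class and 771 in genes without a match, and among the latter the median change went from 0.10 in the bin with the shortest 3′ UTRs to -0.12 in the bin with the longest. Within bins 2, 3 and 4 of length the 8-base genes had medians of -0.40, -0.42 and -0.35, each below the genes without a match in the same bin (-0.01, -0.07 and -0.12). Bin 1 held only 16 genes of the class, with a median of -0.68. By level in CTR the 8-base genes lay below genes without a match in each bin. In the bin above 27.7 RPKM, however, their median was only -0.13, where genes without a match had 0.15.

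Both of the next splits were chosen after the data had been seen. Where an 8-base match lay within 200 bases of either end of the 3′ UTR (81 genes) the median change was -0.61, and for the other 331 genes -0.35. The former also had shorter 3′ UTRs (median 1290 against 3160 bases). The second split began from a site in the long 3′ UTR of Tgfbr2, shown here since its letters recur across many transcripts, with the 7-base match in capitals.
Tgfbr2, last match: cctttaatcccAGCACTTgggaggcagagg
The stretch AGCACTTGGGAGGC, which holds a 7-base match and resembles the B1 family of mouse repeats, was present in the 3′ UTRs of 170 tested genes. For 95 genes with a 7-base match only inside such a stretch the median change was -0.09, with 31.6% higher and 40% lower. The 1484 genes with a 7-base match elsewhere had a median of -0.23, with 15.5% higher and 49.6% lower. The groups had 3′ UTRs of like length (medians 2270 and 2430 bases). About 50 such groupings of genes by site were computed, and none was tested.

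Beyond the described targets, the lowest changes among genes with an 8-base match included those of 4 genes with separate roles. Erap1, a peptidase that trims antigenic peptides, read 9.8 and 11.3 RPKM in CTR and 1.12 and 0.94 with miR-294. Rrm2b, the p53-induced small subunit of ribonucleotide reductase, read 13.4 and 13 and 2.08 and 2.23, and Lamp2, a glycoprotein of the lysosomal membrane, 60.6 and 64.7 and 15.8 and 15.1. Oasl2, an interferon-induced gene, read 10.3 and 9 and 1.24 and 0.77. With siMbd2, Rrm2b read 6.94 and 6.96 and Lamp2 44.4 and 42.9 RPKM, between the other groups.

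Further genes of the class had other roles again. Zfp367, a zinc finger gene, went from 27.6 and 31.3 to 8.3 and 7.3 RPKM, the motor adaptor Hook3 from 16.8 and 20.9 to 5.62 and 4.72, and Ralgds, an activator of Ral GTPases, from 20.4 and 18.2 to 5.54 and 5.43. Olig2, a factor of the neural lineage, and Elavl2, an RNA-binding protein of neurons, fell by 1.64 and 1.62 on the log2 scale. The heterochromatin protein Hp1bp3 read 62.7 and 60.9 RPKM in CTR and 20.3 and 18.6 with miR-294, and the kinase gene Hipk3 14 and 14.9 and 4.2 and 3.93. An 8-base match did not go with a fall in every gene: 48 of the 412 genes rose. The top 3 by change with at least 5 RPKM, picked after their values were seen, were Stx8, a SNARE protein of endosomes (10.8 and 8.65 to 20.4 and 19.5 RPKM), Nufip2, an RNA-binding protein (26.5 and 28.6 to 52.3 and 50.9), and Gtpbp4, a ribosome assembly factor (44.4 and 50.05 to 79.1 and 80.9).

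The largest increase among the genes named was that of Lin28a, whose protein blocks the maturation of let-7, with 4.42 and 5.44 RPKM in CTR, 90.7 and 91.2 with miR-294 and 10.7 and 10.8 with siMbd2 (log2 3.96, SE 0.088). Gbx2, a homeobox factor that sustains ESC self-renewal, read 5.86 and 7.02 and 35.6 and 37.3 in CTR and miR-294. Axin2, a feedback target of WNT signalling, read 0.53 and 0.95 and 7.17 and 7.4, and the retinoic acid receptor gene Rarg 31.2 and 29.3 and 128 and 123. Hmox1, which encodes heme oxygenase, read 34.1 and 33.7 in CTR and 137 and 136 RPKM with miR-294. All 5 were named by a rule that required the groups not to overlap.

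Others among the large increases had varied roles. The imprinted gene Phlda2 went from 9.32 and 7.92 to 42.8 and 45.9 RPKM and the X-linked homeobox gene Rhox5 from 18.9 and 16.6 to 71.7 and 72.3. Rhox5 did not share its direction with siMbd2, where it read 14.1 and 12.8 (direct difference 2.34, adjusted p = 1.21e-06). Nphs1, the gene of the kidney protein nephrin, rose from 5.29 and 5.64 to 25.2 and 25.7 RPKM, the kinase gene Pim2 from 3.74 and 3.53 to 16.1 and 14.6, and Zfp423 from 9.54 and 8.19 to 26.4 and 33. Fgf17, a growth factor gene, also rose, but was high in both treatments. It read 2.71 and 2.24 RPKM in CTR, 10.8 and 10.2 with miR-294 and 8.67 and 9.64 with siMbd2, and the difference between the treatments was not called (0.18, adjusted p = 0.151).

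Among the largest decreases outside the 8-base class was Plagl1, an imprinted zinc finger gene, with 28.9 and 30.4 RPKM in CTR, 4.87 and 4.46 with miR-294 and 27.7 and 27.5 with siMbd2. Gsdmd, which encodes a pore-forming effector of inflammatory cell death, read 24.8 and 21.1, 4.03 and 3.84 and 22.1 and 21.2. These were low in the miR-294 libraries and near CTR in siMbd2. Ifitm1 and Ifitm3 encode membrane proteins that restrict virus entry and are abundant in ESCs. Ifitm1 read 877 and 662 RPKM in CTR and 176 and 181 with miR-294, and Ifitm3 586 and 529.5 and 233 and 236. Parva, a partner of integrin-linked kinase, fell from 37.8 and 30.7 to 7.46 and 6.57 RPKM, the epididymal protease inhibitor Wfdc2 from 118 and 100.2 to 27.2 and 26.2, and Loxl4, a lysyl oxidase, from 11.1 and 8.94 to 1.79 and 1.59. Some low genes were low in both treatments. Copz2, a coat protein of Golgi vesicles, read 9.9 and 7.83 in CTR, 1.29 and 0.92 with miR-294 and 2.78 and 1.89 with siMbd2, and Ttll6, a tubulin-modifying enzyme, 15.1 and 12.9, 2.26 and 1.86 and 6.59 and 5.57.

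**Figure D4:**
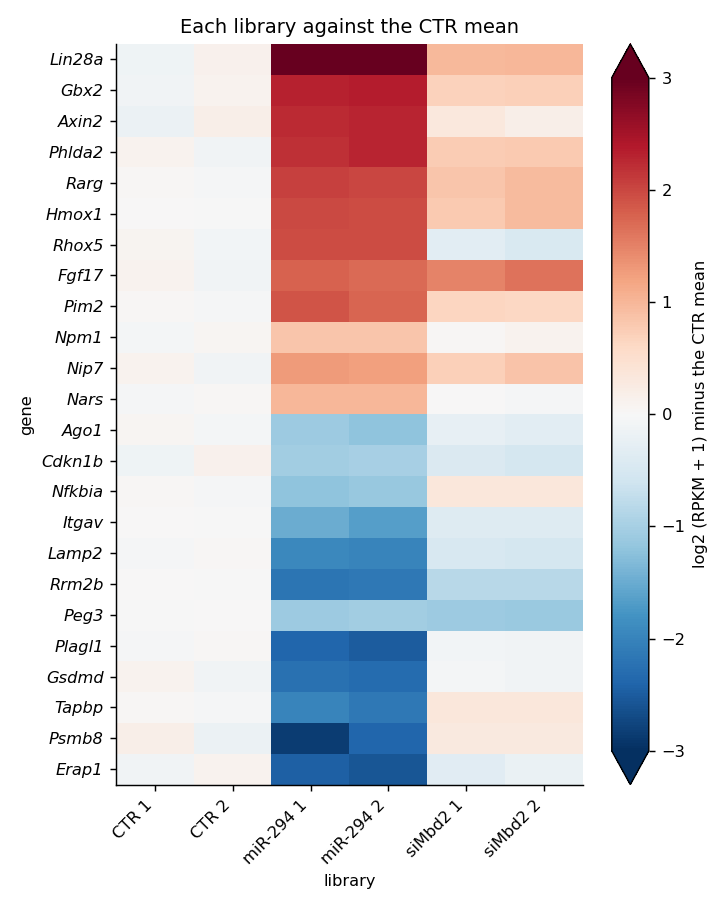
Colours give log2(RPKM + 1) of each of the 6 libraries (columns) minus the mean of the 2 CTR libraries, for 24 genes named in the text (rows), red above and blue below, with the scale ending at 3 and -3. Lin28a passes the upper end with miR-294 (log2 3.96), Fgf17 and Peg3 have like colours in both treatments, and Psmb8, Tapbp and Gsdmd are blue with miR-294 alone.

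In all, 48 lists of genes were counted. Quantile normalization moved the median of all genes from -0.08 to 0.02, and where it moved a printed median of at least 0.1 in size by over 1.5 times, that value is given as well. The machinery of microRNAs itself had 11 of 20 genes lower and 5 higher (median -0.28, or -0.11 with quantile normalization). Ago1, which encodes an Argonaute, read 36.2 and 33.4 RPKM in CTR and 15.7 and 14.6 with miR-294. Tnrc6a and Tnrc6b, whose proteins join Argonaute to the deadenylation machinery, went from 36.1 and 37.8 to 21.7 and 22.2 and from 12.7 and 13.1 to 7.39 and 7.02. Dicer1 read 16.9 and 16.9 in CTR and 12.3 and 12.4 with miR-294. Tarbp2, a partner of Dicer, rose from 30.4 and 26.6 to 53.8 and 51.1 RPKM, and Trim71, a target of let-7, from 25.6 and 26.3 to 36 and 36.2. Lin28b, the relative of Lin28a, moved the other way, from 9.8 and 11.3 to 7.08 and 7.65. With quantile normalization 7 of the 20 genes were lower and 5 higher, and without miR-294 replicate 2 also 7 were lower.

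Genes for making ribosomes and proteins rose together. Calls differed by level as well: of genes without a match in the bin above 27.7 RPKM in CTR, 47.4% rose and 25.1% fell. The part of level in the lists below was not tested. Of 50 genes of ribosome biogenesis 48 rose and none fell, with a median log2 change of 0.72. Npm1, the nucleolar protein nucleophosmin, read 1411 and 1537 RPKM in CTR, 2612 and 2615 with miR-294 and 1518 and 1576 with siMbd2, which was among the largest rises in absolute RPKM. Nip7, a factor of large-subunit assembly, went from 11.8 and 10.2 to 27.9 and 27.2 RPKM, the helicase gene Ddx21 from 53 and 56.3 to 121 and 120.3, and nucleolin, Ncl, from 561 and 608 to 1003 and 986. Of 20 cytosolic aminoacyl-tRNA synthetases 18 rose and none fell (median 0.60, or 0.38 with quantile normalization), such as Nars (140.0 and 147 to 288 and 288 RPKM) and Tars (55.5 and 56.2 to 114 and 111). With siMbd2, Nars stayed at 145 and 139. Of 44 translation factors 39 rose and 1 fell (median 0.45), and with quantile normalization 26 rose and 2 fell (median 0.26). Without CTR replicate 2 also 2 fell, and none without either miR-294 library. Eef1d, an exchange factor of elongation, went from 206 and 181 to 366 and 351 RPKM, and Eif6, an anti-association factor of the large subunit, from 61.7 and 50.4 to 105 and 102.

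The proteins of the mitochondrial ribosome followed, with 63 of 77 genes higher and 2 lower (median 0.41), or 1 lower without either miR-294 library. Mrpl20 read 31.8 and 36.9 RPKM in CTR and 88.7 and 85.7 with miR-294, and Mrpl12 37.3 and 29.5 and 69.6 and 65.2. Of 34 enzymes of nucleotide and folate synthesis 26 rose and 4 fell (median 0.29). Atic and Gart, which act in purine synthesis, went from 50.2 and 48.1 to 103 and 102 and from 98.4 and 88.8 to 173 and 169 RPKM. The mitochondrial folate enzyme Mthfd2 went from 61.3 and 57.8 to 102 and 104. Among 13 polyamine genes 9 rose and none fell (median 0.46). The synthesis gene Srm rose from a mean of 54.2 RPKM in CTR to 153.8 with miR-294 (log2 1.49) and Odc1 from 139.2 to 320.6 (1.20). Oaz1, the antizyme that limits the pathway, rose less (0.74), from 179 and 143 in CTR to 266 and 268 RPKM with miR-294.

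The proteasome split by form. Of 34 subunits of the constitutive proteasome, which degrades most cellular proteins, 30 rose and none fell (median 0.37); with quantile normalization 18 rose and 2 fell (median 0.19). Psmb3 went from 167 and 148 to 241 and 245 RPKM. Of 20 genes of MHC class I presentation and the immunoproteasome, the form that makes peptides for display, 19 fell and none rose (median -0.92). Psmb8, a catalytic subunit of that form, read 10.7 and 8.3 RPKM in CTR, 0.46 and 1.01 with miR-294 and 11.8 and 11.8 with siMbd2. Tapbp, the peptide-loading protein tapasin, read 64.6 and 62.5, 15.4 and 13.6 and 80.3 and 80.8, higher with siMbd2 than in CTR (adjusted p = 0.00756). The peptide transporter genes Tap1 and Tap2 read 4.44 and 3.39 and 2.67 and 2.43 RPKM in CTR and 1.15 and 1.18 and 0.54 and 0.33 with miR-294. The class I gene H2-D1 read 14.1 and 10.5 in CTR, 8.54 and 8.77 with miR-294 and 22 and 20.7 with siMbd2. Class I genes are near-identical copies, so the division of reads among them is uncertain.

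Of 22 factors and feedback genes of NF-κB signalling, a known activator of MHC class I genes, 16 fell and 1 rose (median -0.37, or -0.22 with quantile normalization); 2 rose without CTR replicate 1 and none without miR-294 replicate 1. The inhibitor gene Nfkbia, itself a target of the pathway, read 36.7 and 34.8 RPKM in CTR, 15 and 15.6 with miR-294 and 45.5 and 45.5 with siMbd2. Tnip1 went from 34.7 and 27.6 to 14.6 and 14.5 and Birc3, an inhibitor of apoptosis, from 9.49 and 9.38 to 3.99 and 4.17. All 3 were low in the miR-294 libraries alone.

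Control of the G1 phase shifted gene by gene. Of 26 G1 cyclins, kinases, inhibitors and retinoblastoma family genes 17 fell and 6 rose (median -0.48). Cdkn1b, the gene of the inhibitor p27, read 23.7 and 28.3 RPKM in CTR and 12.2 and 12.5 with miR-294, although its 3′ UTR holds no match. Not all inhibitors fell: Cdkn1c rose from a mean of 4.555 RPKM in CTR to 11.2 with miR-294 (log2 1.13). Ccne1, cyclin E1, rose from 46.5 and 45.2 to 107 and 98.7, and E2f4, a repressor of the E2F family, from 44.7 and 40.6 to 81.8 and 81.3. Ccnd1, cyclin D1, fell from 42.5 and 44.1 to 26 and 25. DNA replication factors rose in 19 of 40 cases and fell in 6 (median 0.17, or 0.10 with quantile normalization), with Orc1 among the former (16.6 and 15.6 to 29.4 and 29.8). Mitosis genes were divided, with 14 of 40 higher and 11 lower, and their median turned from 0.05 to -0.06 with quantile normalization. Without miR-294 replicate 2, 7 were lower. Cyclin B1, Ccnb1, went from 85.9 and 88.8 to 165 and 168 RPKM while Anln, the scaffold anillin of the cleavage furrow, went from 59 and 59.9 to 36.6 and 36.

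Targets of p53 were mixed as well. Against 36.8% lower and 27.7% higher over all tested genes, 11 of 24 (45.8%) were lower and 6 (25%) higher. Their median was -0.07, between -0.17 without CTR replicate 2 and 0.00 with median-of-ratios scaling. Trp53 itself read 184 and 171 RPKM in CTR and 153 and 147 with miR-294 (-0.24), a call that ended without miR-294 replicate 2 (adjusted p = 0.0753). Plk3 rose from 16.9 and 14.6 to 30.4 and 30.5 and Aen, an apoptosis-enhancing nuclease, from 29.1 and 25.9 to 41.5 and 39.5, whereas Rrm2b and Cdkn1a fell. Of 24 BCL2 family genes and caspases 10 fell and 5 rose, and 3 and 2 rose without miR-294 replicates 1 and 2. Pmaip1, the gene of NOXA, read 43 and 54.1 RPKM in CTR and 25.7 and 28.1 with miR-294. Bok, a BAX relative, rose from 3.47 and 2.93 to 5.49 and 4.94.

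**Figure D5:**
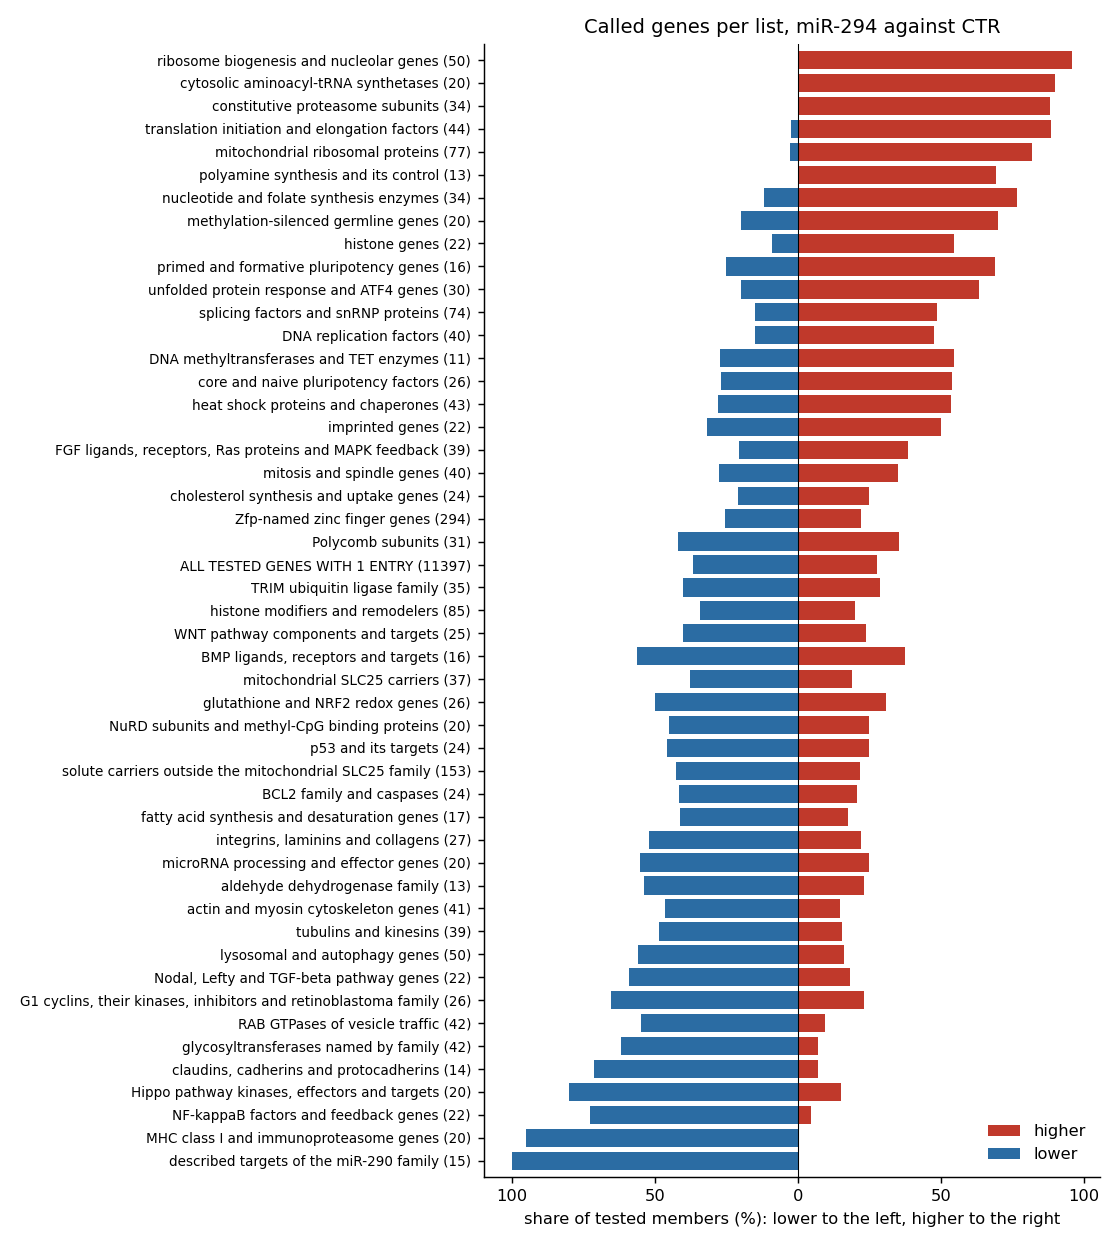
For each list (number of tested members in brackets) red bars to the right give the percentage of members called higher and blue bars to the left the percentage called lower. Ribosome biogenesis (48 of 50 higher) stands at the top and the described targets (15 of 15 lower) at the bottom, with the bar for all tested genes that have 1 entry in the table between them.

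Signalling pathways were counted next. In the Hippo pathway, whose kinases hold YAP and TAZ out of the nucleus, 16 of 20 genes fell and 3 rose (median -0.58). Besides Lats2, the kinase gene Stk3 went from 14.4 and 16.4 to 8.08 and 8.4 RPKM and the DNA-binding partner Tead4 from 25.9 and 25.1 to 12.1 and 10.2. Ctgf, a target of YAP, rose from 18.8 and 18.1 to 25.2 and 24.9. Ajuba, which restrains the LATS kinases, rose from 52.9 and 49.5 to 66.1 and 66.1. The kinase gene Stk4, the paralog of Stk3, was also called higher, at 15.6 and 16.4 in CTR and 19 and 18 with miR-294 (adjusted p = 0.0293). That call ended without miR-294 replicates 1 and 2 (adjusted p = 0.193 and 0.0755) and in a fit of the 4 CTR and miR-294 libraries alone (0.069).

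Nodal and TGF-β genes fell in 13 of 22 cases and rose in 4 (median -0.30, or -0.16 with quantile normalization). The ligand Nodal rose from 24 and 21.4 to 34.5 and 35.4 RPKM, while both Lefty inhibitors fell as above. Among BMP genes the ligand Bmp4 rose and receptor genes fell. Bmp4 read 0.84 and 0.70 RPKM in CTR and 10.4 and 9.44 with miR-294, the receptor genes Bmpr2 5.19 and 6.3 and 2.31 and 2.42 and Bmpr1a 17.9 and 19.3 and 11.4 and 12.1, and the target Id3 25.9 and 23.6 and 39.5 and 39.8. Of the 16 BMP genes tested 6 rose and 9 fell.

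WNT genes did not move as one, with 6 of 25 (24%) higher and 10 (40%) lower. These shares were near those of all tested genes (27.7% and 36.8%). The median of the WNT genes was -0.10, or -0.04 with quantile normalization, and 0.02 and -0.17 without CTR replicates 1 and 2. Axin2 rose, while the transcription factor Tcf7l2 read 10.9 and 9.81 RPKM in CTR and 3.86 and 3.83 with miR-294 and its relative Tcf7 9.34 and 8.6 and 14.7 and 14.8. The secreted antagonist Sfrp1 went from 52.6 and 50.7 to 21.9 and 20.4, and the receptor gene Fzd2 from 7.3 and 5.42 to 2.1 and 2.36. Of 39 genes of FGF and MAPK signalling 15 rose and 8 fell. Their median was 0.07, against 0.13 with quantile normalization and 0.14 with median-of-ratios scaling. Fgf15 went from 1.49 and 1.01 to 6.64 and 6.8 RPKM, though its 3′ UTR holds a 7-base match, and the phosphatase gene Dusp14 from 28.5 and 25.3 to 12.8 and 12.2. Spry4, a feedback inhibitor, read 14.8 and 17.1 in CTR and 49.9 and 52 with miR-294.

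Genes that join cells to each other and to the matrix were mostly lower. Of 14 claudins, cadherins and protocadherins 10 fell and 1 rose (median -0.50). Of 27 integrins, laminins and collagens 14 fell and 6 rose, with a median of -0.31 that was -0.19 without CTR replicate 1 and -0.52 without CTR replicate 2. E-cadherin, Cdh1, read 92.7 and 90.8 RPKM in CTR, 58.4 and 55.2 with miR-294 and 109.6 and 114 with siMbd2. The integrin genes Itgav and Itgb1 went from 34.6 and 34.2 to 11.6 and 10.3 and from 123 and 136 to 68.5 and 69.7. The laminin subunit gene Lama1 read 5.12 and 4.52 in CTR and 10.6 and 9.96 with miR-294. Cldn6 was the 1 claudin that rose, from 11.3 and 9.56 to 17.8 and 16.6.

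The cytoskeleton showed a like balance. Of 41 actin and myosin genes 19 fell and 6 rose (median -0.18); with quantile normalization 27 fell and 3 rose (median -0.28), and without CTR replicate 1 the median was -0.10. Rhob, a GTPase of actin control, went from 25.8 and 26.7 to 9.76 and 9.3 RPKM and the tropomyosin gene Tpm4 from 92 and 97.5 to 45.8 and 45.2, while the α-actinin gene Actn4 went from 224 and 179 to 333 and 307. Of 39 tubulins and kinesins 19 fell and 6 rose (median -0.22), or 3 rose without miR-294 replicate 2. Tubb2a read 95.2 and 80.4 in CTR and 24.7 and 24.9 with miR-294, Tuba1a 157 and 138 and 78.6 and 74.5, and Tuba4a, which rose, 69.4 and 56.4 and 126 and 115.

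Lysosomes, vesicle traffic and protein glycosylation were lower as lists. Of 50 lysosomal and autophagy genes 28 fell and 8 rose (median -0.25). Besides Lamp2, Lamp1 went from 226 and 214 to 136 and 139.5 RPKM and the progranulin gene Grn from 73.4 and 58.8 to 28.9 and 26.6. Tfe3, a transcription factor of lysosome genes, rose from 21.6 and 21.7 to 42.9 and 42.3. Among 42 RAB GTPases 23 fell and 4 rose (median -0.36, or -0.24 with quantile normalization). The number that rose was 7 with quantile normalization or without CTR replicate 1, and fell to 2 when miR-294 replicate 2 was left out. Rab27a fell from 24.4 and 23.2 to 10.9 and 10.5 RPKM. Of 42 glycosyltransferases 26 fell and 3 rose (median -0.46), and with quantile normalization 6 rose (median -0.26). Mgat5, which branches N-glycans and has an 8-base match, read 6.67 and 6.77 in CTR and 2.03 and 2.07 with miR-294, Galnt7 13.7 and 14.8 and 4.92 and 4.84, and Fut9, which makes the stage-specific antigen SSEA-1, 5.56 and 6.77 and 1.9 and 2.02.

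Subunits of chromatin complexes moved in both directions, as did all tested genes (27.7% higher and 36.8% lower). Of 31 Polycomb subunits 11 rose and 13 fell, and the median turned from -0.02 to 0.05 with median-of-ratios scaling and was -0.05 with quantile normalization. Kdm2b, which brings a Polycomb complex to CpG islands, went from 33.4 and 36.2 to 79.5 and 72.4 RPKM, Phc1 from 132 and 116 to 242 and 246 and Eed from 45.9 and 54.1 to 97.5 and 94.6. Other subunits went the other way. Phc3, a paralog of Phc1, read 6.68 and 6.96 in CTR and 2.99 and 3.1 with miR-294, and Bmi1 9.86 and 11.3 and 5.26 and 6.17. Ezh2, the methyltransferase, was not called (-0.07, adjusted p = 0.352), but was lower with quantile normalization (-0.23, adjusted p = 0.0131).

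The methyl-CpG binding and NuRD genes fell in 9 of 20 cases and rose in 5. Their median was -0.09, and between -0.15 without CTR replicate 1 and -0.03 with median-of-ratios scaling. While Mbd2 and Mbd1 fell, Mbd3, the alternative subunit to Mbd2 in NuRD, rose from 72.2 and 63.5 to 99.9 and 94.6 RPKM. Mbd1 read 7 and 6.82 and 3.56 and 3.8, and the remodeler gene Chd3 16.1 and 14.4 and 7.5 and 6.58. Of 85 histone modifiers and remodelers 17 (20%) rose and 29 (34.1%) fell, below the shares of all tested genes (27.7% and 36.8%). The median of this list was -0.03 and turned to 0.03 with median-of-ratios scaling, where 26 rose and 22 fell. Without miR-294 replicate 1, 11 rose, and without miR-294 replicate 2, 17 fell. Smarcc2, a BAF subunit with an 8-base match, went from 18.2 and 16.4 to 6.35 and 6.05 and Suv39h1, a heterochromatin methyltransferase, from 20.01 and 18.8 to 7.72 and 7.79. Of 22 histone genes 12 rose and 2 fell, or 4 fell without CTR replicate 2. The 2 were the macroH2A genes H2afy (120.2 and 108 to 57.3 and 51.9 RPKM) and H2afy2 (20.2 and 18.8 to 8.92 and 7.72). Histone genes form near-identical families, so their values are uncertain. Splicing factors rose in 36 of 74 cases and fell in 11, but with quantile normalization 22 rose and 21 fell (median 0.17 and 0.02). Mbnl1 and Mbnl2, which direct splicing towards differentiated forms, fell from 4.33 and 5.41 to 2.18 and 2.6 and from 23.5 and 27.5 to 12.7 and 13.6.

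Genes of developmental state were examined next. Of 26 pluripotency factors 14 rose and 7 fell (median 0.30, or 0.11 with quantile normalization). Pou5f1 rose from 790 and 689 RPKM in CTR to 1059 and 1056 with miR-294, and Nanog fell from 354 and 372 to 206 and 211. Sox2 read 260 and 289 in CTR and 194 and 191 with miR-294. Of the 12 ESC markers 5 (41.7%) rose and 4 (33.3%) fell. Prdm14, a guardian of the naive state, went from 13.8 and 12.6 to 7.43 and 7.45 RPKM and Zfp42, the gene of REX1, from 132 and 136 to 215 and 208. Klf4 and Esrrb were not called (-0.12, adjusted p = 0.0911, and -0.12, adjusted p = 0.205), but were lower with quantile normalization (adjusted p = 0.016 and 0.00297) and without CTR replicate 2 (0.0326 and 0.00719). Of 16 genes of primed and formative pluripotency, the state after implantation, 11 rose and 4 fell (median 0.91). Pou3f1 rose from 1.79 and 1.98 to 4.71 and 4.45 while Otx2, a leading factor of that state, fell from 18.1 and 18 to 7.92 and 6.93. Of 20 germline genes known for silencing by DNA methylation 14 rose and 4 fell (median 0.63). Stra8, which starts meiosis, read 2.6 and 3.04 in CTR and 9.13 and 8.67 with miR-294, and Dazl 2.05 and 2.21 and 4.45 and 5.02. Of 6 markers of germ cells, a set that shares 3 genes with that list, 2 rose and 3 fell. Tfap2c and Prdm1, factors of primordial germ cells, fell from 28.4 and 26.2 to 9.08 and 8.6 and from 10.8 and 8.57 to 3 and 2.29. Their part in the change of the list was not tested. The neighbours of Rhox5 in its X-linked cluster, Rhox6 and Rhox9, fell, from 18.8 and 17.7 to 7.79 and 6.82 and from 27.9 and 26.5 to 7.09 and 6.86.

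Imprinted genes rose in 11 of 22 cases and fell in 7 (median 0.17). With 1 library left out the median ran from 0.11 (without miR-294 replicate 1) to 0.29 (without CTR replicate 1), and it was -0.08 over the 17 genes that averaged 5 RPKM or more. Peg10 went from 36.4 and 35.8 to 83.3 and 83.4 RPKM and Igf2 from 17.4 and 14.3 to 28.9 and 25.5. Peg3 read 14.1 and 14.6 in CTR, 6.21 and 6.48 with miR-294 and 6.19 and 6.08 with siMbd2, and the 2 treatments did not differ by the test (0.04, adjusted p = 0.661). Markers of other cell types are given by their summed level. That of the 6 germ cell markers was 63.2 and 60.1 RPKM in CTR and 39.2 and 39.7 with miR-294. The summed level of 5 trophoblast markers was 6.36 and 6.42 RPKM in CTR and 13.8 and 13.3 with miR-294, with 3 of 4 tested genes higher and Cdx2 under 1 RPKM in every library. That of 3 neuroectoderm markers was 22.2 and 23.1 in CTR and 9.91 and 10.4 with miR-294, with all 3 lower. Pax6 read 9.62 and 9.88 and 3.81 and 4.58. Of 2 markers of feeder fibroblasts, Thy1 rose from 1.56 and 1.47 to 3.6 and 3.37 RPKM and Col1a1 was under 1 RPKM in every library. Primitive endoderm markers summed to 3.96 and 3.31 RPKM in CTR and 4.24 and 3.95 with miR-294. Gata4, the 1 of them that was tested, fell from 3.05 and 2.48 to 0.96 and 0.92. The 6 with means under 1 RPKM each read higher in both miR-294 libraries than in CTR, though at low levels. Sox7 read 0.1 and 0.2 RPKM in CTR and 1.28 and 1.15 with miR-294, and Gata6 0.15 and 0.18 and 0.7 and 0.77. In bulk RNA, fewer cells of a type and less RNA per cell cannot be told apart, and the part of such cells in any change above was not tested.

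Families with no single direction are given by count. Of the tested zinc finger genes named Zfp 65 (22.1%) rose and 75 (25.5%) fell, both smaller shares than among all tested genes. With quantile normalization 115 rose and 41 fell. Without miR-294 replicate 1, 39 rose and 47 fell. Among 35 TRIM ubiquitin ligases 10 rose and 14 fell, with Trim28, a corepressor of retroelements, at 388 and 333 RPKM in CTR and 641 and 633 with miR-294 and Trim12a at 5.56 and 6.1 and 1.41 and 1.56. Of 13 aldehyde dehydrogenases 3 rose and 7 fell, but without CTR replicate 1 it was 5 that rose, and 1 if miR-294 replicate 2 was left out. Of 37 mitochondrial SLC25 carriers 7 rose and 14 fell. There 11 rose without CTR replicate 1, 4 rose without miR-294 replicate 1 and 8 fell without miR-294 replicate 2. Of 11 DNA methyltransferases and TET enzymes 6 (54.5%) rose and 3 (27.3%) fell. Dnmt3l rose from a mean of 71.9 RPKM in CTR to 413.6 with miR-294 (log2 2.51) and Dnmt3a from 22.3 to 52.7 (1.22). Dnmt3b, which also rose, read 32.9 and 31.8 in CTR, 76.9 and 74.8 with miR-294 and 45.8 and 48.6 with siMbd2. Dnmt1 fell from a mean of 75.8 to 62.7 (-0.27).

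Metabolism of lipids and transport changed in single genes. Of 24 genes of cholesterol synthesis and uptake 6 rose and 5 fell, with a median of -0.05 that became 0.10 with quantile normalization, where 3 fell. Without miR-294 replicate 2 also 3 fell. Ebp, a sterol isomerase, went from 48.3 and 37.1 to 15.9 and 15.1 RPKM. Among 17 fatty acid genes 7 fell and 3 rose, or 1 rose without miR-294 replicate 1. Acss2, which makes acetyl-CoA from acetate, read 11.4 and 9.54 in CTR and 3.72 and 3.59 with miR-294, and Scd1, a desaturase, 3.66 and 3.44 and 7.94 and 8.44. Of 153 solute carriers outside the mitochondrial family 33 rose and 65 fell, and the median went from -0.19 to -0.01 with quantile normalization and to -0.12 without CTR replicate 1. The cationic amino acid carrier Slc7a3 rose from 54.1 and 53.5 to 112 and 112.

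Stress genes moved in both directions. Of 30 genes of the unfolded protein response and the ATF4 pathway 19 rose and 6 fell (median 0.43), or 3 fell without miR-294 replicate 2. Atf4 itself went from 142 and 141 to 252 and 251 RPKM and Ddit3, the gene of CHOP, from 17.4 and 15.9 to 26 and 28.9, whereas Edem1 and Dnajb9, which belong to the IRE1 branch, fell. Dnajb9 read 16.8 and 21.4 in CTR and 10.6 and 10.7 with miR-294, and Edem1 11.2 and 11.1 and 7.17 and 7.1. The longest 3′ UTRs of Dnajb9 and Edem1 each hold a 7-base match, whose part in their falls was not tested. Heat shock proteins and chaperones rose in 23 of 43 cases and fell in 12 (median 0.21, or 0.06 with quantile normalization). The chaperonin partner Hspe1 went from 292 and 318 to 519.8 and 508 and Hspb8, a small heat shock protein, from 65.3 and 55.3 to 17.4 and 17.7. Glutathione and redox genes fell in 13 of 26 cases and rose in 8 (median -0.16). With quantile normalization 5 rose and the median was -0.37, and it was -0.10 and -0.25 without CTR replicates 1 and 2. Nfe2l2, the gene of NRF2, read 52 and 52.6 in CTR and 34.9 and 35.2 with miR-294, and its target Nqo1 89.9 and 89 and 62.9 and 64.7. Hmox1, another target of NRF2, rose, as given above.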

How the data were processed

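The deposited table holds 1 RPKM value per gene and library, made by the authors and named so per the file headers. It also holds a fold ratio per treatment, the authors' mean RPKM over CTR, which was not used here. The submitters' processing notes name CASAVA 1.7, STAR 2.3.0, Cufflinks and mm10 without roles. As to annotation, strand setting and read selection, nothing is given in the sources used here. Per the labels each sample is the average of 2 lanes. Entries below a mean of 1 RPKM (2315) were left out.

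One linear model of log2(RPKM + 1) with 3 groups was fitted over the 6 libraries with limma 3.58.1 under R 4.3.3, its prior variance following mean intensity, and had 3 residual and 5.38 prior degrees of freedom. Tests were two-sided, and p-values were adjusted by Benjamini-Hochberg over 11428 genes. For a single gene, exact permutation of 2 against 2 libraries reaches p = 0.333 at the lowest. The script was tested on simulated data. Samples were grouped by title. Replicate numbers were not used to pair libraries.

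Seed matches were sought in the longest 3′ UTR of protein-coding transcripts with a stop codon (GENCODE vM21), with Python 3.11.15, and 412 symbols were matched through synonyms. Antisense and overlapping genes cannot be told apart where strand was not used. Named genes were the 25 highest and 25 lowest changes among called genes whose groups did not overlap and with at least 5 RPKM in the higher group, the 15 lowest with an 8-base match, the 10 largest rises and falls in RPKM, up to 6 called members of each list with fixed key members, and all described targets; not all are printed. The targets, lists and rules were chosen with earlier results of these data known, and the patterns of 2 lists (integrins and solute carriers) were narrowed after values were seen. Alternatives were other pseudocounts (0.1 and 5), filters, scalings, fits, left-out libraries and another choice of 3′ UTR.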

Additional observations from a re-analysis of the deposited data

How the results depend on the processing

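The numbers of genes higher and lower stayed within 1.5 times of 3162 and 4204 in all 13 alternatives. The share of called genes that were higher was 42.9%, against 49.4% under median-of-ratios scaling and 51.3% under quantile normalization. With a pseudocount of 5, the numbers changed by at least 1.5-fold went from 1090 to 629 higher and from 1906 to 881 lower, since a larger pseudocount shrinks changes of low genes, and with a minimum mean of 5 RPKM 1270 were lower, since fewer genes were tested. The difference in median change between genes with an 8-base match and genes without one was -0.363. It was -0.429 with a pseudocount of 0.1, -0.237 with one of 5, -0.435 with a minimum of 5 RPKM and -0.306 with quantile normalization, between -0.416 and -0.340 with 1 library left out, and -0.380 with the 3′ UTR of the transcript with the longest coding sequence; the cause of these shifts was not tested. A fit with the replicate block gave 3263 genes higher and 4342 lower and changed no call of a named gene. The deviations of same-numbered libraries correlated by 0.119, 0.132 and 0.022, which does not establish pairing with 2 libraries per group.

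Of 178 genes named in the text, Cdkn1c, Sox2, Dnmt1, Dnmt3a, Dnmt3l, Srm and Odc1 aside, 19 were not tested with a minimum of 5 RPKM. Of the 178, 172 kept their direction and their side of the threshold in every alternative that tested them. The other 6 were Trp53, Klf4, Esrrb and Stk4, given above, Ezh2, whose change was 0.00 with median-of-ratios scaling, and Dgcr8, whose change was 0.02 with quantile normalization and -0.26 without CTR replicate 1 (adjusted p = 0.0234). Of 108 counts of members higher or lower, 16 moved by over 1.5 times with quantile normalization, 3 with median-of-ratios scaling, 21 with a minimum of 5 RPKM and none with the other pseudocounts, fits or the replicate block. With 1 library left out between 2 and 11 moved, most of them counts of few members. Without a read depth no counting error can be given, so the limit on low genes is unknown. With 2 libraries per group every call rests on the spread that limma shares between genes, and leaving a library out assumes that the lone library varies like the other groups.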
